A study of Homo sapiens with 6 samples.

Results

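The 9 receptor tyrosine kinases described here, which can carry growth signals alongside the androgen receptor, were EGFR, ERBB2, ERBB3, RET, MET, DDR1, FGFR1, FGFR3 and FGFR4. They were taken from the deposited gene table by symbol, and 9 of 9 were found among its 18164 rows. DDR1 had 2 rows, so the receptors filled 10 rows. The cells were LNCaP, a human line from a lymph node metastasis of prostate cancer that depends on the androgen receptor. Poly(A) RNA was sequenced from 3 samples kept for 14 days in 5 µM enzalutamide, an androgen receptor antagonist, and from 3 samples given the vehicle dimethyl sulfoxide (DMSO). Both groups were wild type by label, were seeded at 150000 cells per dish in medium with 10% serum, held 0.1% DMSO, and had medium and treatment renewed every 72 h. DMSO cells were collected at 70 to 80% confluency. No source used here gives their day of collection, so drug, time in culture and density cannot be told apart. One cell line was used. Nothing in the labels tells whether replicates are separate cultures, and the p-values then measure only the spread of these libraries, which could be technical.

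Receptor tyrosine kinases span the cell membrane, bind a ligand outside the cell, pair up and phosphorylate each other inside it. The phosphorylated tails recruit adaptors that start the RAS to ERK and the PI3K to AKT cascades. EGFR binds epidermal growth factor and its relatives, ERBB3 binds neuregulins but has little kinase activity of its own, and ERBB2 has no known ligand and acts as a partner of both. RET is activated by ligands of the glial cell line-derived neurotrophic factor (GDNF) family held by GFRA co-receptors, MET by hepatocyte growth factor, DDR1 by collagen, and the FGFR proteins by fibroblast growth factors (FGF). In prostate cancer such receptors are studied as bypass routes of growth signalling when androgen signalling is blocked.

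Total counts over the table were 42302153 to 52107644 per enzalutamide library and 35578160 to 42540487 per DMSO library. Enzalutamide replicate 1 stood apart from its group on the second principal component, which held 5.44% of the variance, against 88.4% for the first, which separated the groups. Mitochondrial genes took 12.1, 13.6 and 15.7% of the counts in enzalutamide replicates 1, 2 and 3, against 10.5, 11.2 and 10.8% in DMSO replicates 1, 2 and 3, with no overlap. The LNCaP labels were checked on 10 luminal prostate genes, which were present in both groups, with 9637 to 10243 CPM (counts scaled to library size) in sum with enzalutamide and 9284 to 9438 CPM with DMSO. All 8 proliferation markers examined fell, to a sum of 106 to 109 CPM with enzalutamide, against 1425 to 1443 CPM with DMSO. Among stromal genes, 7 of 10 fibroblast and smooth muscle markers were measured, with 27.1 to 29.9 CPM in sum with enzalutamide and 22.1 to 23.3 CPM with DMSO. The 3 of 7 endothelial markers in the table summed to 9.41 to 12.3 CPM with enzalutamide and 11.2 to 13.4 CPM with DMSO. Of 5 basal epithelial markers, 1 (KRT14) was measured, at 0.699 to 1.28 CPM with enzalutamide and 1.92 to 2.35 CPM with DMSO, and 0 of 7 leukocyte markers were in the table. The part of these differences in the results below was not tested. In bulk RNA, fewer cells that express a gene and less RNA per cell cannot be told apart.

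Of the 9 receptors, 8 changed with enzalutamide, in both directions. ERBB2, RET, MET, DDR1 and FGFR1 rose, EGFR, FGFR3 and FGFR4 fell, and ERBB3 did not pass the test (edgeR quasi-likelihood test, adjusted p under 0.05). Change was common in the whole table: 59.2% of 18164 genes passed, 30.0% higher and 29.2% lower. The receptors' count of 5 higher and 3 lower was the same without each library in turn. In every row of the table the third highest count was at least 9, and RET met this through the enzalutamide libraries, where it is higher, so its call is not independent evidence of a rise. In 8 of the 9 receptors the groups did not overlap, as in 66.4% of all genes. The median size of change over all genes was 0.55 on the log2 scale, and 5.04% of genes had a larger change than RET while 94.8% had a larger one than ERBB3.

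**Figure D1:**
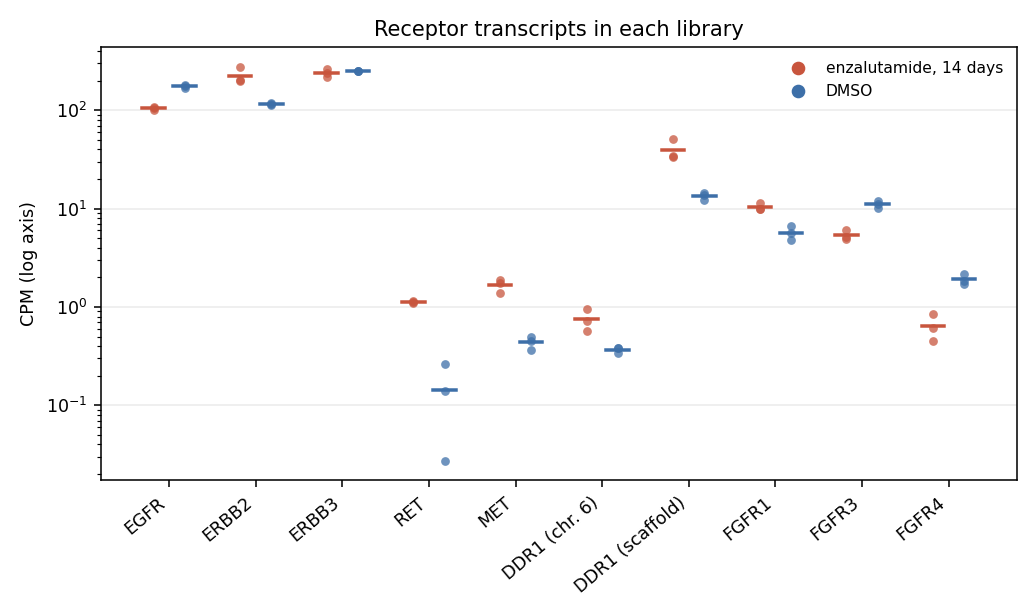
CPM (log axis) of the 10 receptor rows in each library, with enzalutamide points left of DMSO points and a bar at each mean (n = 3 per group). In 9 rows the groups do not overlap, and in ERBB3 the DMSO points lie inside the enzalutamide range of 220 to 261 CPM.

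ERBB2, the partner receptor without a ligand (ENSG00000141736.13, hg38 chr17:39687914-39730426), had 275, 202 and 197 CPM in enzalutamide replicates 1, 2 and 3, against 114, 120 and 116 CPM in DMSO replicates 1, 2 and 3. Every enzalutamide library lay above every DMSO library, and replicate 1 was the highest. The rise was 0.95 ± 0.13 on the log2 scale (SE, adjusted p = 0.000144), or 1.93-fold, and 0.79 without enzalutamide replicate 1. ERBB2 shares 571 exon bases (5.53% of its length) with MIEN1 and 144 with PGAP3 on the other strand. MIEN1 averaged 55.3 ± 15.1 CPM with enzalutamide and 34.5 ± 1.87 CPM with DMSO (SD, n = 3 per group), and no source used here says if strand was used in counting, so reads of the shared bases are uncertain.

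EGFR, the receptor for epidermal growth factor (ENSG00000146648.18, chr7:55019017-55211628), moved the other way. It had 106, 101 and 109 CPM in enzalutamide replicates 1, 2 and 3, against 167, 176 and 181 CPM in DMSO replicates 1, 2 and 3. The groups did not overlap, and each was tight. The fall was -0.73 ± 0.09 on the log2 scale (SE, adjusted p = 5.17e-05), or 1.66-fold.

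ERBB3, the neuregulin receptor (ENSG00000065361.15, chr12:56076799-56103505), had 261, 220 and 241 CPM in enzalutamide replicates 1, 2 and 3, against 249, 251 and 248 CPM in DMSO replicates 1, 2 and 3. The DMSO libraries lay within the spread of the enzalutamide libraries. Its log2 change of -0.05 ± 0.09 (SE, adjusted p = 0.661) did not pass, and the sign was not stable, at 0.012 without enzalutamide replicate 2 and 0.076 with upper quartile scaling.

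Levels of different genes were compared per length, as RPKM (reads scaled by gene length and library size) from the authors' deposited log2 values. These carry a small offset, as NRG2, a neuregulin, had 0 counts in DMSO replicate 2 and still 0.0101 RPKM. RPKM of genes with few reads, such as RET, MET and FGFR4, is therefore somewhat too high. ERBB3 was the highest of the 9 receptors in each library of both groups, at 26.6 ± 2.30 RPKM with enzalutamide and 27.6 ± 0.136 RPKM with DMSO (SD, n = 3 per group). The next rank changed hands. ERBB2 was second with enzalutamide (21.8 ± 4.23 RPKM) and the third with DMSO (11.3 ± 0.298 RPKM). EGFR was the third with enzalutamide (8.40 ± 0.311 RPKM) and second with DMSO (14.0 ± 0.567 RPKM). The ratio of ERBB2 to EGFR was 3.16, 2.43 and 2.20 in enzalutamide replicates 1, 2 and 3, against 0.828, 0.826 and 0.780 in DMSO replicates 1, 2 and 3. It was above 1 in every enzalutamide library and below 1 in every DMSO library, a log2 difference of 1.66 (exact two-sided permutation test, p = 0.1, the smallest that 3 against 3 allows). ERBB3 stayed above ERBB2 in all 3 enzalutamide libraries, although their ranges overlapped.

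Within the summed RPKM of EGFR, ERBB2 and ERBB3, ERBB2 took 38.2% ± 3.31 with enzalutamide and 21.4% ± 0.314 with DMSO (SD, n = 3 per group). EGFR took 14.9% ± 1.48 with enzalutamide and 26.4% ± 0.751 with DMSO, and ERBB3 took 47.0% ± 1.93 with enzalutamide and 52.2% ± 0.769 with DMSO. For 15 such shares the groups did not overlap, each with an exact two-sided permutation p of 0.1, the smallest this design can give, also after adjustment over the 15. The 9 receptors together summed to 75.9, 60.3 and 63.0 RPKM in enzalutamide replicates 1, 2 and 3, against 57.8, 59.3 and 58.4 RPKM in DMSO replicates 1, 2 and 3. The mean difference of 7.89 RPKM (exact two-sided permutation test, p = 0.1) was 3.13 RPKM without enzalutamide replicate 1 (exact p = 0.2, the smallest that 2 against 3 allows). In CPM, without scaling by length, the sums gave p = 0.3 in the exact test.

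**Figure D2:**
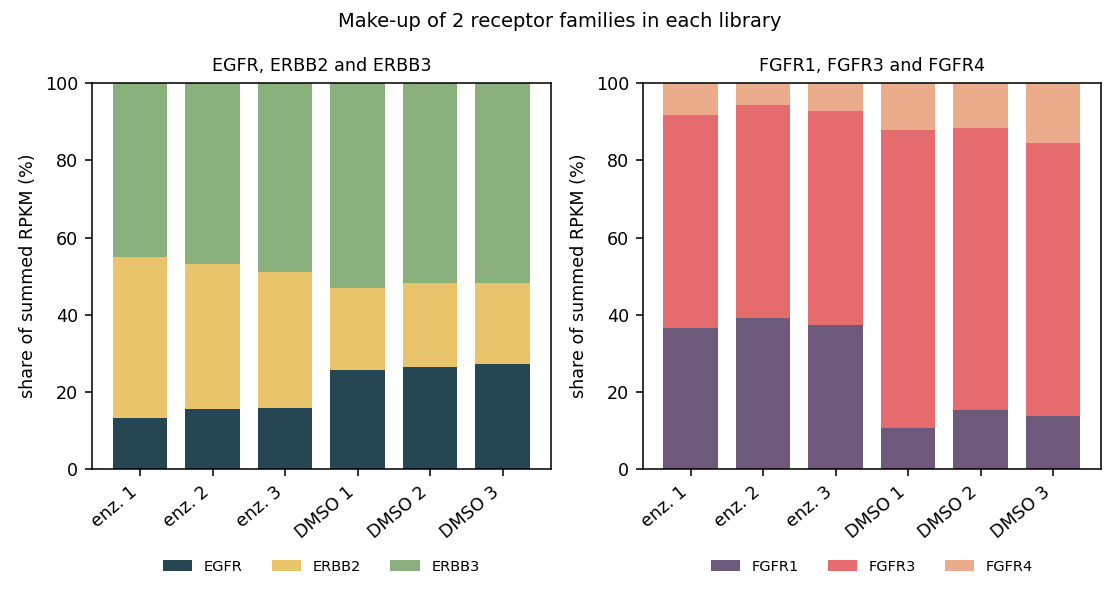
Share of the summed RPKM (%) taken by each receptor in each library, for EGFR, ERBB2 and ERBB3 on the left and FGFR1, FGFR3 and FGFR4 on the right, with enzalutamide libraries left of DMSO libraries. ERBB2 averages 38.2% with enzalutamide and 21.4% with DMSO, and FGFR1 37.6% with enzalutamide and 13.3% with DMSO.

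RET, the receptor of the GDNF family (ENSG00000165731.19, chr10:43077069-43130351), had the largest change among the receptors, from very few reads. It had 58, 60 and 48 counts (1.10, 1.13 and 1.14 CPM) in enzalutamide replicates 1, 2 and 3, against 1, 11 and 5 counts (0.0274, 0.261 and 0.141 CPM) in DMSO replicates 1, 2 and 3. The enzalutamide libraries were nearly equal, and the DMSO libraries were all lower and scattered. The log2 change was 2.90 ± 0.41 (SE, adjusted p = 0.00016), or 7.46-fold, and it was 3.71 without DMSO replicate 2 and 2.44 without DMSO replicate 1. Because RET is listed through its enzalutamide counts, these values describe a difference and are not independent evidence of a rise. Per length RET stayed near the bottom of the 9 receptors, with 0.171 ± 0.00297 RPKM with enzalutamide and 0.0276 ± 0.017 RPKM with DMSO (SD, n = 3 per group).

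MET, the receptor of hepatocyte growth factor (ENSG00000105976.15, chr7:116672196-116798386), had 73, 99 and 74 counts (1.39, 1.87 and 1.76 CPM) in enzalutamide replicates 1, 2 and 3. In DMSO replicates 1, 2 and 3 it had 18, 19 and 13 counts (0.493, 0.451 and 0.368 CPM). Every enzalutamide library was above every DMSO library. The log2 change was 1.92 ± 0.23 (SE, adjusted p = 4.64e-05), or 3.79-fold. Its level per length was still low, with 87.8% of all genes higher with enzalutamide and 95.6% higher with DMSO.

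DDR1, the collagen receptor, was counted in 2 places. It lies on chromosome 6 near the major histocompatibility complex, where the genome build carries alternate haplotype scaffolds. The row on scaffold GL000252.2 (ENSG00000230456.10, positions 2137270 to 2156466) held 97.3 to 98.3% of the DDR1 reads in every library, and the row at chr6:30876421-30900156 (ENSG00000204580.13) held the rest. The scaffold row had 51.6, 33.6 and 34.0 CPM in enzalutamide replicates 1, 2 and 3, against 13.8, 14.5 and 12.3 CPM in DMSO replicates 1, 2 and 3. All enzalutamide libraries were above the DMSO libraries, and replicate 1 was the highest. The scaffold row rose by 1.55 ± 0.18 on the log2 scale (SE, adjusted p = 3.67e-05), and by 1.33 without enzalutamide replicate 1. The chromosome 6 row, at 0.746 ± 0.192 CPM with enzalutamide and 0.368 ± 0.0244 CPM with DMSO (SD, n = 3 per group), rose by 1.03 ± 0.28 (SE, adjusted p = 0.00935). With the rows summed, an alternative chosen after seeing the data, DDR1 rose by 1.54 ± 0.18 (SE, adjusted p = 3.8e-05). A search of the chromosome 6 row alone would miss most of the DDR1 reads. In the deposited RPKM, the rows together gave DDR1 10.6% ± 1.36 of the 9 receptors' sum with enzalutamide and 4.19% ± 0.326 with DMSO. No source used here says how reads that match both places were counted, so the level of DDR1, this share and its rank beside EGFR and FGFR3 may be too low.

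FGFR1 (ENSG00000077782.20, chr8:38400215-38468834) was the FGF receptor that rose. It had 11.5, 10.0 and 9.86 CPM in enzalutamide replicates 1, 2 and 3, against 4.79, 6.68 and 5.60 CPM in DMSO replicates 1, 2 and 3. The groups did not overlap, and the log2 change was 0.88 ± 0.15 (SE, adjusted p = 0.000578). It shares 138 exon bases (0.997% of its length) with LETM2 on the other strand, which averaged 2.82 CPM in both groups.

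FGFR3 (ENSG00000068078.18, chr4:1793293-1808872) had 6.04, 4.95 and 5.13 CPM in enzalutamide replicates 1, 2 and 3, against 12.1, 11.0 and 10.1 CPM in DMSO replicates 1, 2 and 3. It fell by 1.04 on the log2 scale, with an SE of 0.14 (adjusted p = 9.28e-05). FGFR4, the receptor for FGF19 with the co-receptor beta-klotho (ENSG00000160867.15, chr5:177086905-177098144), had 0.855, 0.454 and 0.618 CPM in enzalutamide replicates 1, 2 and 3, against 1.83, 1.71 and 2.18 CPM in DMSO replicates 1, 2 and 3. Both receptors were lower in every enzalutamide library than in any DMSO library. The FGFR4 change was -1.56 ± 0.24 (SE, adjusted p = 0.000324), or 2.95-fold lower, on 24 to 45 counts per enzalutamide library and 67 to 77 per DMSO library.

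The make-up of the FGF receptors shifted. FGFR1 took 37.6% ± 1.28 of the summed RPKM of the 3 with enzalutamide and 13.3% ± 2.38 with DMSO (SD, n = 3 per group). FGFR3 took 55.4% ± 0.196 with enzalutamide and 73.6% ± 3.36 with DMSO, and remained the highest of them per length in all 6 libraries. FGFR4 took 7.00% ± 1.34 with enzalutamide and 13.1% ± 2.20 with DMSO. The ratio of FGFR1 to FGFR4 was 4.44, 7.00 and 5.19 in enzalutamide replicates 1, 2 and 3, against 0.894, 1.33 and 0.882 in DMSO replicates 1, 2 and 3. In DMSO libraries FGFR1 and FGFR4 could not be ranked, as their ranges overlapped, and the same held for DDR1 and FGFR3. With enzalutamide, the neighbours that overlapped were ERBB3 with ERBB2, EGFR with DDR1, and RET with FGFR4.

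Sequence upstream of 4 of the changed receptors is shown because the deposited gene start and the RefSeq transcript start coincide there. RET and MET rose, and EGFR and FGFR3 fell. Each line gives the 250 bases before the start, on the plus strand of GRCh38.p14, as RefSeq lists them: RET chr10:43076819-43077068, MET chr7:116671946-116672195, EGFR chr7:55018767-55019016 and FGFR3 chr4:1793043-1793292. Capitals mark GC boxes, the letters GGGCGG on either strand, and boxes that overlap form 1 run.
RET: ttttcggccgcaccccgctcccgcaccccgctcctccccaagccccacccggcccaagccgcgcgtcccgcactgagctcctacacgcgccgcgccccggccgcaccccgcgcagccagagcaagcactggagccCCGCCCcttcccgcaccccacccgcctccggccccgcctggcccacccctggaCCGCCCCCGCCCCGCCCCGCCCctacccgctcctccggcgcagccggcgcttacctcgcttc
MET: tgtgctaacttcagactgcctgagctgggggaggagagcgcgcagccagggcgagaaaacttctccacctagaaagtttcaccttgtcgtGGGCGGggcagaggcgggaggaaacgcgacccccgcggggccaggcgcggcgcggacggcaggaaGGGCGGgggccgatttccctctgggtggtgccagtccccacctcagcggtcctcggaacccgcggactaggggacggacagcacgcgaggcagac
EGFR: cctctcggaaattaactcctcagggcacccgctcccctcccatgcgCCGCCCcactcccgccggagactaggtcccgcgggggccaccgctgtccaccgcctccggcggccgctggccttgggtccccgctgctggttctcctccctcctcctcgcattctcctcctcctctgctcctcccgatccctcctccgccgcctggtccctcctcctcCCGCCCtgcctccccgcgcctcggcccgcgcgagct
FGFR3: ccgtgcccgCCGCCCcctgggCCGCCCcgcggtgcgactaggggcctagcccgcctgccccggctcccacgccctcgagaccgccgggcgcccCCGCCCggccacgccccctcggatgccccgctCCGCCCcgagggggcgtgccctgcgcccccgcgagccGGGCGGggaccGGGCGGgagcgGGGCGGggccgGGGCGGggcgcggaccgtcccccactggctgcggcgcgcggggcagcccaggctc

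The windows held 5 GC boxes in RET, 2 in MET, 2 in EGFR and 8 in FGFR3, so receptors of both directions had them. Of 35116 listed human promoter windows of this length, 42.6% held at least 1. The G and C content was 79.6% in RET, 68.4% in MET, 73.6% in EGFR and 86.8% in FGFR3. None of the 4 windows held TATAAA (10.7% of all windows), CCAAT (32.0%) or AGAACA, the hexamer core of androgen receptor sites (12.4%), on either strand. No match says only that these letters are not in these windows. RefSeq windows were found for 7 of the 9 receptors.

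The gene nearest in pattern was sought for the receptor with the largest change in each direction, among 12866 genes with at least 1 CPM on average in each group. RET (0.143 CPM with DMSO) and FGFR4 (0.642 CPM with enzalutamide) were themselves below that level, so genes equally low in a group were not compared. The measure was the Euclidean distance of the authors' log2 CPM over the 6 libraries, each gene centred on its mean. Nearest to RET were PRSS16, a serine protease (distance 1.04), LINC02635, a long non-coding RNA (1.17), and KLHL3, a ubiquitin ligase adaptor (1.17). PRSS16 averaged 10.9 ± 0.892 CPM with enzalutamide and 1.81 ± 0.514 CPM with DMSO (SD, n = 3 per group). Nearest to FGFR4 were MIR1244-2 (0.336), NRARP, a Notch-regulated protein (0.364), and AC004943.2, a long non-coding RNA (0.414). NRARP averaged 7.60 ± 1.23 CPM with enzalutamide and 23.7 ± 1.54 CPM with DMSO. With libraries in 2 separate groups, such distances mostly reflect the size of the group difference.

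Beside the 9 receptors, 27 of 49 other receptor tyrosine kinases were measured on the primary chromosomes. Of these, 13 rose, 7 fell and 7 were not called (30.0% of all genes rose and 29.2% fell). Their median log2 change was 0.36, against a median of -0.0037 over all genes. Among the calls, 4 of the 13 and 1 of the 7 are in the table through the counts of their higher group alone. The counts and the median are therefore a description. The number that rose was 8 without DMSO replicate 3. Without that library PDGFRB, TYRO3, MERTK, LMTK2 and EPHA7 were no longer called. ROR2, a receptor for WNT5A, had 928, 635 and 464 counts in enzalutamide replicates 1, 2 and 3, against 3, 2 and 2 in DMSO replicates 1, 2 and 3. ROR2, FLT3, NTRK2, PDGFRB and MST1R reach the table's lowest count level in every enzalutamide library but not in every DMSO library. FLT4 reaches it in every DMSO library but not in every enzalutamide library. MST1R was not called. The calls of the other genes are not independent evidence of a direction and are given as values only. FLT3, a cytokine receptor of blood progenitors, averaged 2.98 ± 0.566 CPM with enzalutamide and 0.240 ± 0.124 CPM with DMSO (SD, n = 3 per group). The ephrin receptors EPHB2 (log2 change 1.74), EPHB3 (1.37) and EPHA10 (0.94) also rose. DDR2, the other collagen receptor, fell to 2.28 ± 0.328 CPM with enzalutamide, against 12.96 ± 1.24 CPM with DMSO, a log2 change of -2.50 where DDR1 rose. IGF1R, the receptor of insulin-like growth factors, fell to 148 ± 6.13 CPM with enzalutamide, against 309 ± 10.6 CPM with DMSO, and STYK1 fell by 1.09 on the log2 scale. NTRK2, the receptor of brain-derived neurotrophic factor, had 68 counts over the enzalutamide libraries and 3 over the DMSO libraries. Of all genes, 27.0% passed with a change of at least 2-fold, 14.7% higher and 12.3% lower, and 10 of the 27 did, 6 higher and 4 lower. ROR2, FLT3, NTRK2 and PDGFRB are among these 6 and FLT4 is among these 4, so the counts do not support a direction of change.

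**Figure D3:**
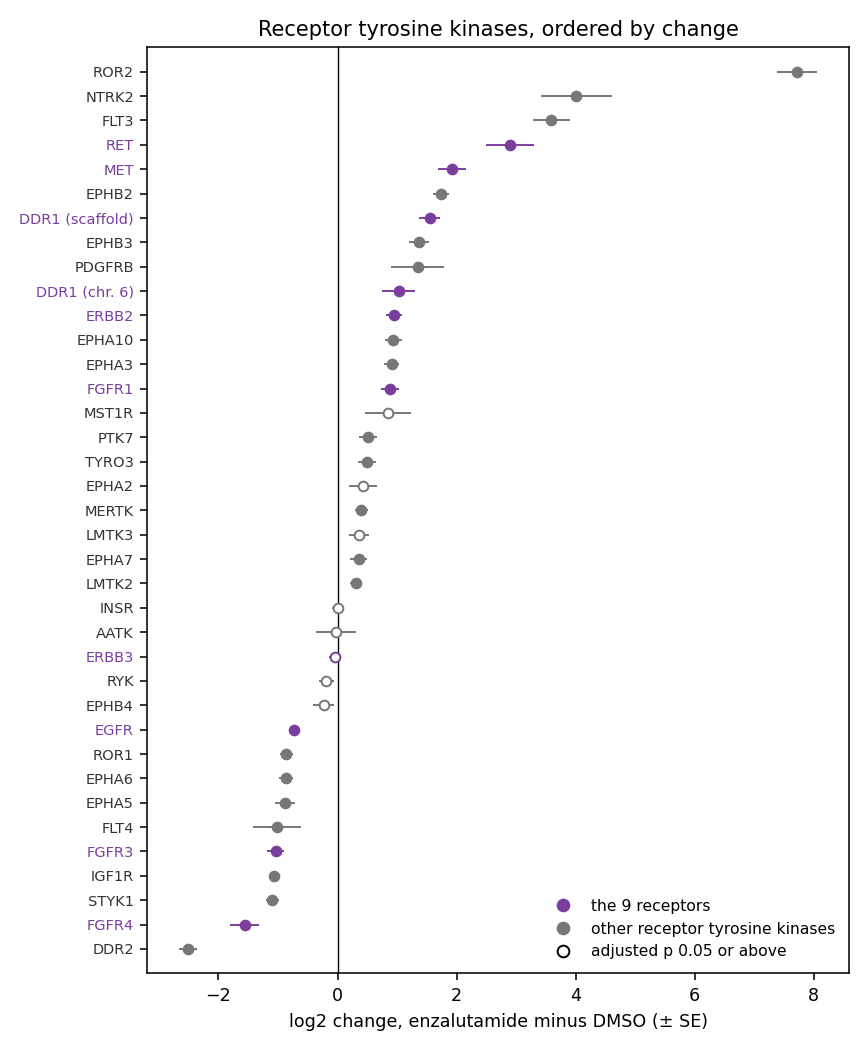
Log2 change, enzalutamide minus DMSO, with SE bars, for the 10 receptor rows (purple) and 27 other receptor tyrosine kinases (grey), open where the adjusted p was 0.05 or above. RET at 2.90 and MET at 1.92 lie near the top, FGFR4 at -1.56 lies near the bottom, and NTRK2 rests on 3 DMSO counts.

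Of 11 listed ligands of the ERBB receptors, 7 were measured, and 5 were called higher and 2 lower (30.0% and 29.2% of all genes). Of these 5, 3 (BTC, NRG2 and NRG3) reach the table's lowest count level in the enzalutamide libraries alone, so they had to be higher there to be listed and their calls support nothing. Among the other 4, TGFA and HBEGF rose and EGF and NRG4 fell. TGFA, transforming growth factor alpha, a ligand of EGFR, had 21.5, 21.5 and 25.05 CPM in enzalutamide replicates 1, 2 and 3, against 2.96, 3.35 and 2.94 CPM in DMSO replicates 1, 2 and 3. All enzalutamide libraries were far above the DMSO libraries, a log2 change of 2.88 ± 0.13 (SE, adjusted p = 4.87e-08). HBEGF, another EGFR ligand, averaged 11.8 ± 0.423 CPM with enzalutamide and 4.25 ± 0.344 CPM with DMSO (SD, n = 3 per group). By contrast EGF fell to 1.93 ± 0.300 CPM with enzalutamide, against 6.26 ± 0.259 CPM with DMSO. Among the neuregulins, NRG3 had 206, 253 and 246 counts in enzalutamide replicates 1, 2 and 3, against 4, 4 and 6 in DMSO replicates 1, 2 and 3. NRG2 had 112 counts over the enzalutamide libraries and 1 over the DMSO libraries. NRG4 changed by -1.57 ± 0.26 (SE), but 38.2% of its length overlaps exons of FBXO22 on the other strand, so its reads are uncertain. NRG2 binds ERBB3 and ERBB4, and NRG3 is known mainly as a ligand of ERBB4, which had no row in the deposited gene table. Of the 7, 5 rose in the full table and 3 rose where at least 1 CPM in 3 libraries was required.

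FGF1, a ligand of all the FGF receptors, had 564, 544 and 411 counts in enzalutamide replicates 1, 2 and 3, against 5, 6 and 0 in DMSO replicates 1, 2 and 3. All 3 enzalutamide libraries were near 10 CPM (10.3 ± 0.478), and the DMSO libraries averaged 0.0931 ± 0.0807 CPM (SD, n = 3 per group). FGF1 is in the table through its enzalutamide counts alone, so its difference is a description. FGF22 did not pass, and 16 of the 18 FGF genes listed had no row in the deposited gene table. Of the ligands of RET and MET, 3 of 6 were measured. ARTN (log2 change -0.13) and PSPN (-0.41), which are GDNF family members, did not pass. PSPN fell without enzalutamide replicate 1 or without DMSO replicate 1, so the count that fell was 2 in those settings. GDF15, which signals through GFRAL and RET, fell to 38.7 ± 13.9 CPM with enzalutamide, against 157 ± 10.6 CPM with DMSO.

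**Figure D4:**
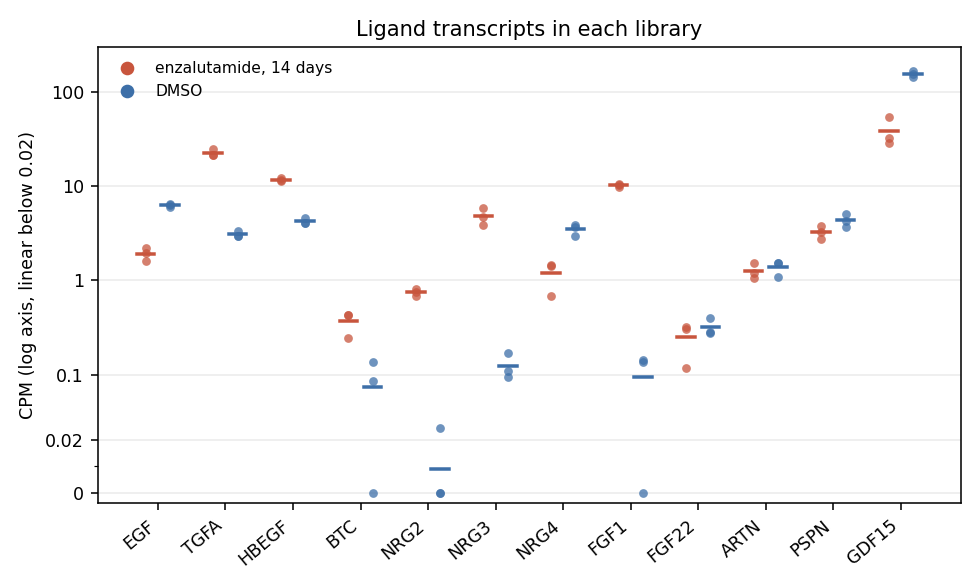
CPM of 12 ligand genes in each library (log axis, linear below 0.02 CPM), with enzalutamide points left of DMSO points and a bar at each mean. TGFA, HBEGF, NRG3 and FGF1 lie higher with enzalutamide in every library, and EGF, NRG4 and GDF15 lie lower.

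Collagens that can engage DDR1 were measured for 9 of 15 genes, of which 4 rose and 1 fell, and 4 were not called. The share called, 55.6%, is near the 59.2% of all genes. COL5A2 rose to 36.6 ± 3.97 CPM with enzalutamide, against 3.65 ± 0.367 CPM with DMSO (SD, n = 3 per group), COL6A2 rose by 2.32 on the log2 scale, COL3A1 by 1.78 and COL6A1 by 0.59. COL1A1 fell by 0.49 on the log2 scale, and without enzalutamide replicate 1 COL4A2 fell as well, which made 2. The fibroblast marker sums given above moved in the same direction as COL3A1, and against COL1A1, which are both among those markers.

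Co-receptors changed in all 11 measured of 17 listed, 7 higher and 4 lower. Of all genes 59.2% changed, 30.0% higher and 29.2% lower. The syndecans, which carry heparan sulphate that holds FGF on the receptor, rose in all 4 members. SDC4 rose to 174 ± 18.99 CPM with enzalutamide, against 27.1 ± 2.03 CPM with DMSO (SD, n = 3 per group), SDC2 by 1.86 on the log2 scale, SDC1 by 1.61 and SDC3 by 0.55. KLB, beta-klotho, rose by 1.00 on the log2 scale while KL, klotho, fell to 0.517 ± 0.162 CPM with enzalutamide, against 3.43 ± 0.110 CPM with DMSO. Plexins PLXNB1 and PLXNB2, partners of MET, and NRP1 made up the other falls, and 2 of the 4 falls passed without DMSO replicate 2 or with upper quartile scaling. GFRA co-receptors of RET were looked for and had no row in the deposited gene table, so their level is unknown.

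Of 6 measured proteins that release ERBB ligands from the membrane, ADAM10 rose (log2 change 0.48) and ADAM9 (-1.49) and RHBDF2 (-1.43) fell. The share called was 50%, against 59.2% of all genes. ADAM17, the main sheddase of TGFA, did not pass (-0.36, adjusted p = 0.0507). Without enzalutamide replicate 1 the number that fell was 5, with ADAM17, ADAM15 and RHBDF1 added. Negative regulators rose in 7 of 16 and fell in 3, all by less than 2-fold. The share called, 62.5%, is near the 59.2% of all genes. Among those that rose were SH3KBP1 (0.78), SOCS2 (0.71), CBLB (0.62) and LRIG2 (0.57). SOCS2 shares 277 exon bases with its antisense gene, so its reads are uncertain.

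Adaptors rose in 14 of 28 and fell in 4, with a median log2 change of 0.39. The share called, 64.3%, is near the 59.2% of all genes. GRB10, which binds activated receptors, rose to 1357 ± 43.6 CPM with enzalutamide, against 226 ± 19.4 CPM with DMSO (SD, n = 3 per group), a log2 change of 2.59 ± 0.10 (SE, adjusted p = 1.25e-08). SHC2 rose by 3.38 on the log2 scale, SHC4 by 2.29, though it overlaps exons of the more abundant EID1, and VAV3 by 2.04. GRB2, which links receptors to the RAS activator SOS1, rose to 245 ± 26.9 CPM with enzalutamide, against 136 ± 2.92 CPM with DMSO. GAB1, a docking protein of MET, rose 2.00 on the log2 scale. Without enzalutamide replicate 1, 7 adaptors fell, among them SHC1, RASA1 and CRKL, which did not pass with all libraries. With upper quartile scaling 2 fell.

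In the core of the RAS to ERK cascade, of 14 genes, 5 rose, 2 fell and 7 were not called, and their median log2 change was 0.080. That is 50% called, against 59.2% of all genes. The scaffold KSR1 rose by 2.27 on the log2 scale and KSR2 by 1.33, and NRAS fell by 0.46. Leaving out single libraries moved these counts: without enzalutamide replicate 1 6 rose and 6 fell, and without DMSO replicate 2 3 rose and 1 fell. One fell without DMSO replicate 1, without DMSO replicate 3 and without enzalutamide replicate 2. The same count of 1 was found with upper quartile scaling and with the stricter filter. Genes that respond to ERK changed in 12 of 13, 10 higher and 2 lower, where 30.0% of all genes were higher and 29.2% lower. SPRED2, 1 of the 10, was no longer called when any library other than enzalutamide replicate 1 was left out. SPRY2 was not called without DMSO replicate 2. SPRY4 rose to 427 ± 29.1 CPM with enzalutamide, against 44.0 ± 3.77 CPM with DMSO. EGR1 and ETV5 had 1.21 and 1.18 CPM with enzalutamide and 0.157 and 0.245 CPM with DMSO. Both are listed through their enzalutamide counts alone, so their calls are not evidence of a rise. DUSP4, an ERK phosphatase, fell to 3.28 ± 0.367 CPM with enzalutamide, against 31.3 ± 2.63 CPM with DMSO (SD, n = 3 per group).

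**Figure D5:**
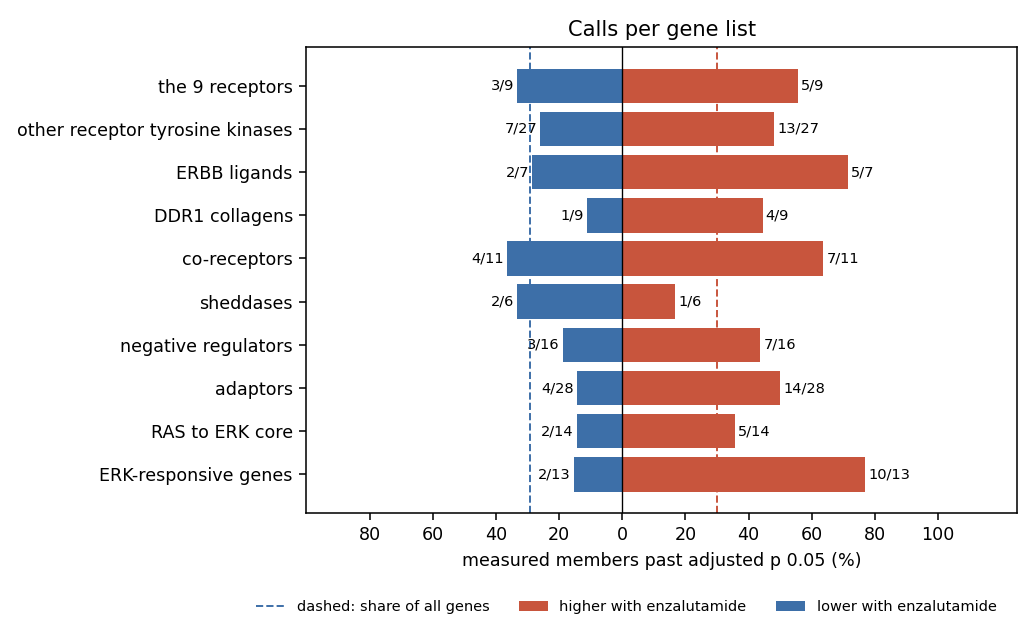
Percentage of measured members of each list past an adjusted p of 0.05, higher (right) or lower (left) with enzalutamide, with counts at the bar ends. Dashed lines mark the shares over all genes, 30.0% higher and 29.2% lower. ERK-responsive genes reach 10 higher of 13, of which 2 are listed through their enzalutamide counts alone.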

How the data were processed

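RNA of 6 libraries was analysed, 3 from enzalutamide-treated and 3 from DMSO-treated LNCaP cells, grouped by their titles. The authors deposited whole-number read counts per gene, with log2 RPKM and log2 CPM for each library, per the file headers. They also deposited p-values and false discovery rates, per the file headers, which were not used for calls. The build was hg38, and STAR 2.5, Subread 1.6.5 with featureCounts, bcl2fastq and edgeR 3.20.8 are named, per the submitters' processing notes. In each deposited row the third highest count was at least 9.

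The test on counts was that of edgeR 4.0.16 under R 4.3.3 (TMM scaling, robust quasi-likelihood test on group alone, 4 residual degrees of freedom), with Benjamini-Hochberg adjustment over 18164 genes. filterByExpr removed none of them. CPM values use TMM-scaled library sizes, changes are enzalutamide minus DMSO, and each SE is the absolute log2 change divided by root F. RPKM is 2 to the power of the deposited log2 value. The fit was tested on simulated data. Replicate pairs differed by more than sampling noise (lowest ratio of chi-square to its degrees of freedom 3.69). The ratio was 73.0 for enzalutamide replicates 1 and 2, 92.5 for 1 and 3, and 13.8 for 2 and 3. Among DMSO replicates it was at most 9.35. The table holds 236 rows on alternate scaffolds, and lists were matched on primary chromosomes. Receptors and lists were chosen with earlier results of these data known. Named list genes were up to 4 per list (8 for other receptor tyrosine kinases) past the threshold, ranked by log2 change, whose higher group averaged 1 CPM or more; 1 such gene is not reported here. GRB2, GAB1, HBEGF, NRG2, NTRK2, SDC3, KLB, NRP1, PLXNB1, PLXNB2, COL1A1 and members named for a lost or missed call were chosen after their values were seen. DESeq2 1.42.0, limma-voom (limma 3.58.1), other scalings, a stricter filter, a replicate block and single left-out libraries were alternatives.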

Additional observations from a re-analysis of the deposited data

How the results depend on the processing

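The calls of 8 receptors past the threshold kept their direction and their side of it in all 14 alternatives (13 for the chromosome 6 row of DDR1, which the stricter filter removed). RET, 1 of the 8, is listed through its enzalutamide counts, so its kept direction is not evidence of a rise. Without a filter, values equal the main ones. RET ranged from 2.44 to 3.71 on the log2 scale and ERBB2 from 0.79 to 1.07. ERBB3 changed sign, to 0.076 with upper quartile scaling, and ranged from -0.099 to 0.012 when single libraries were left out. Upper quartile scaling moved the median of all genes to 0.12. It also lowered the counts that fell to 2 for co-receptors, 2 for adaptors and 1 for the RAS to ERK core. The filter at 1 CPM left 3 ERBB ligands higher and 1 RAS to ERK gene lower, by testing fewer genes.

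With single libraries left out, the counts that fell ranged from 2 to 4 for co-receptors, 1 to 2 for RET and MET ligands, 1 to 2 for collagens, 2 to 5 for sheddases, 3 to 7 for adaptors, 1 to 6 for the RAS to ERK core and 0 to 1 for endothelial markers. The counts that rose ranged from 3 to 6 for the RAS to ERK core and from 8 to 14 for other receptor tyrosine kinases. The cause was not tested. Of 504 counts under alternatives, 484 were within 1.5 times the main count, and 112 of 112 shares and sums kept their direction. The deviations of same-numbered libraries from their group means had r of -0.27, -0.37 and 0.15, and those of differently numbered ones -0.30 to 0.41. With 3 libraries per group this cannot tell whether same-numbered libraries share a batch. With a replicate block there were 5084 genes higher with enzalutamide and 5090 genes lower with enzalutamide, against 5450 and 5304 without it, and the receptor calls were the same. RET, MET and FGFR4 rest on few reads, which limits the precision of their changes.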
